A study of Mus musculus with 11 samples.

Results

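The lines of mouse AKP colon cancer organoids made to overexpress SOX17 (SOX17OE) were compared with AKP organoids re-derived from tumours that had grown in RAG2KO mice, over every gene with enough counts to test. The comparison rests on 5 of 11 poly(A) RNA sequencing libraries, 1 of a constitutive SOX17OE line, 1 of an inducible SOX17OE line and 3 of RAG2KO tumour-derived organoids, and on 13720 of 23224 listed genes. Organoids are epithelial cells grown as small three-dimensional structures in a gel. All 5 libraries carry the AKP genotype, in which the altered genes include the tumour suppressors Apc and Trp53. Both SOX17OE lines were naive organoids transduced with a lentivirus, 1 with a constitutive and 1 with a doxycycline-inducible construct, and had not grown in a mouse. The RAG2KO organoids carry no construct. They came from naive organoids placed in the colon of RAG2KO mice by colonoscopy, re-grown from the primary tumours and passaged. RAG2KO mice lack mature T and B cells and keep their innate immune cells. The construct's promoter, whether its SOX17 sequence is human or mouse, whether a line is 1 clone, and whether doxycycline was given are not stated in the sources used here. The construct and growth in a host differ between the groups together, so this comparison cannot tell their parts apart. The naive (3) and C57Bl6 tumour-derived (3) libraries entered the fit and are given below as reference levels. Naive organoids had neither the construct nor growth in a host, and no test against them is given here.

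SOX17 is a transcription factor of the SOXF family with an HMG box that binds the core sequence ACAAT and its variants. It acts in the embryonic endoderm, from which the gut epithelium comes, and in the endothelium of arteries, and it is normally silent in the adult colon epithelium. Interferon gamma, a cytokine of T and NK cells, binds a receptor made of IFNGR1 and IFNGR2, and signals through the kinases JAK1 and JAK2 to genes such as Irf1, which in turn raise MHC class I antigen presentation.

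Sox17 itself was measured at 72.7 CPM, a read count scaled to a common library size, in the constitutive line and 4.78 CPM in the inducible line. The 3 RAG2KO libraries held 22.2, 15.4 and 24.4 CPM, the naive libraries 0.0438 to 0.214 CPM and the C57Bl6 libraries 12.4 to 74.3 CPM. The constitutive line therefore lay above and the inducible line below all 3 RAG2KO libraries, and both lay far above naive organoids. The mean of the lines did not pass the test against RAG2KO (log2 fold change -0.15, SE 0.66, 95% interval -1.62 to 1.33, adjusted p = 0.937), nor did either line alone (adjusted p = 0.331 and 0.290), and the lines did not pass the test against each other (adjusted p = 0.236). A human coding sequence would be counted here only where its reads aligned to mouse Sox17.

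Library totals of the 5 libraries were 15412611 to 17656757 expected counts. Rn45s, the precursor of ribosomal RNA, took 6.56 to 8.54% of counts in the RAG2KO libraries, 6.39% in the constitutive and 3.71% in the inducible line, and its part in the results was not tested. All 10 epithelial markers were above 1 CPM in every library, with a summed level of 10040 to 10750 CPM in RAG2KO, 6765 CPM in the constitutive and 8522 CPM in the inducible line. The 15 T, B and NK cell markers summed to at most 1.56 CPM. The 16 myeloid markers summed to 66.0 to 100.6 CPM in RAG2KO and to 42.3 and 43.2 CPM in the lines. Cd14, at 25.8 and 24.2 CPM against 49.8 to 69.7 CPM, was their 1 called member (adjusted p = 0.0233, and over 0.05 without RAG2KO replicate 2, 0.0565, or either line, 0.0772 and 0.106), while the macrophage genes Csf1r and Lyz2 were at 0 to 1.28 CPM. In bulk RNA, fewer cells of a type and less RNA per cell cannot be told apart. Nothing in the sources used here says that the RAG2KO libraries came from separate mice, so p-values measure only the spread between these samples, and a single line is assumed to vary like the replicated groups.

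The lines differed from RAG2KO organoids mainly through genes that were lower. At an adjusted p under 0.05 (edgeR's quasi-likelihood test, Benjamini-Hochberg), 488 of 13720 genes passed (3.56%), of which 94 were higher (0.685%) and 394 lower (2.87%) in the mean of the 2 lines. Among the called genes, 32 were over 4-fold higher and 252 over 4-fold lower. The libraries did not overlap in 459 of the 488. Over all tested genes, both lines lay outside the RAG2KO range on the same side in 4063 (29.6%), 1868 above it and 2195 below. The median gene differed by -0.0070 on the log2 scale, and for 8247 genes (60.1%) the 95% interval of the difference stayed within 1 log2 unit of 0. Against RAG2KO alone, the constitutive line had 60 genes higher (0.437%) and 153 lower (1.12%), and the inducible line 86 higher (0.627%) and 142 lower (1.03%). The count of 488 fell to 319 without naive replicate 1, 306 without naive replicate 2 and 314 without RAG2KO replicate 2. It was 222 without the constitutive and 214 without the inducible line. With the lines treated as 2 samples of 1 group it was 301 over 11 libraries and 38 over the 5 libraries alone. With limma voom 431 genes passed and the higher genes made up 33.2% of them, against 19.3% in the edgeR fit, and for the constitutive and inducible lines alone 59.7% against 28.2% and 51.9% against 37.7%. Through the alternatives 90 called genes were followed, those named by rule and also Hoxa2, Hoxa4, 2700086A05Rik and Mira. Of the 90, 18 were called in the fit of the 5 libraries alone: T, Ifitm6, Pde4b, Akr1c18, Alox15, Tshz2, Ttll7, Tspan32, Cldn2, Palmd, Igfbp4, Onecut2, Clu, Avil, Dkk2, Wnt6, Slc39a4 and Irf1.

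**Figure D1:**
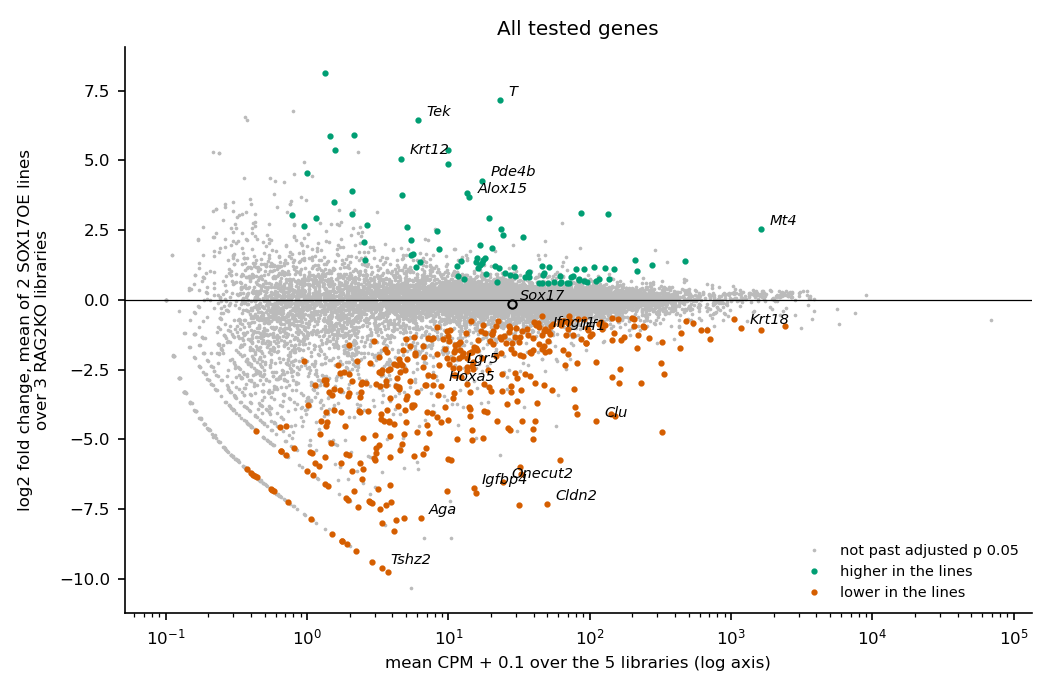
Log2 fold change of the mean of the 2 SOX17OE lines over the 3 RAG2KO libraries (vertical) against the mean level in CPM + 0.1 over these 5 libraries (horizontal, log axis), 1 point per tested gene. The 94 called higher genes (green) and 394 called lower genes (orange) are marked, Sox17 (open circle) lies near 0, and the lowest diagonal rows of points are genes at or near 0 counts in the lines, whose fold depends on the prior count.

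Among genes higher in the lines, T and Tek had the largest differences and were near 0 in RAG2KO organoids. T (Brachyury), the transcription factor that defines embryonic mesoderm, was at 91.2 CPM in the constitutive and 22.5 CPM in the inducible line against 0.0674, 0.467 and 0.374 CPM in RAG2KO. Both lines stood far above all RAG2KO libraries, and the naive (0.143 to 0.745 CPM) and C57Bl6 libraries (0.0524 to 0.202 CPM) were as low as RAG2KO. The difference was 7.16 on the log2 scale (SE 0.58, adjusted p = 3.37e-04). Tek, the angiopoietin receptor TIE2 of endothelial cells, was at 26.1 and 3.61 CPM against 0.0674, 0.234 and 0 CPM (log2 fold change 6.46 with an SE of 0.97, adjusted p = 0.00758). The rise was called in each line alone (adjusted p = 0.00634 and 0.0490), without overlap, and C57Bl6 libraries held 0.262 to 1.92 CPM. Of 8 tested endothelial markers Tek was the only one called. Cdh5, the endothelial cadherin, was at 3.29 and 0.758 CPM against 0.0674 to 0.187 CPM (adjusted p = 0.0825), and Pecam1, Kdr, Emcn, Cldn5, Eng and Erg were at 0 to 0.115 CPM in the lines. The 17 endothelial markers summed to 66.9 CPM in the constitutive line, 10.9 CPM in the inducible line and 8.83 to 23.2 CPM in RAG2KO. Tek (26.1 CPM) and Cdh5 (3.29 CPM) did not make up the whole sum of the constitutive line. The rest came from markers that are not named here, so the named markers near 0 do not stand for the whole list. In the constitutive line 6 of the 17 markers were over 1 CPM, against 4 in the inducible line and 3, 6 and 4 in RAG2KO. Of the 8 tested markers 5 had a positive and 3 a negative difference.

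The 250 bases before and 50 after the annotated starts of T and Tek are shown because these 2 genes had the largest differences among those higher. They are RefSeq sequence of GRCm38.p6, T at chr17:8434173-8434472 and Tek at chr4:94739039-94739338, both on the plus strand. Capitals mark ACAAT or its reverse complement ATTGT, the core bound by SOX factors, and TTCNNNGAA, a palindromic element found at interferon gamma responsive genes. No marked stretches overlap.
T: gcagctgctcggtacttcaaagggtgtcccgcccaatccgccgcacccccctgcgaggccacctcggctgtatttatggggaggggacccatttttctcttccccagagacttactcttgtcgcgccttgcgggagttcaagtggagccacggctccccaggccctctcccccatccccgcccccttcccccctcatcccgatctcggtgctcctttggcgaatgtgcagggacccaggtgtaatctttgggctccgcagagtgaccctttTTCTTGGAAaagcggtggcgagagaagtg
Tek: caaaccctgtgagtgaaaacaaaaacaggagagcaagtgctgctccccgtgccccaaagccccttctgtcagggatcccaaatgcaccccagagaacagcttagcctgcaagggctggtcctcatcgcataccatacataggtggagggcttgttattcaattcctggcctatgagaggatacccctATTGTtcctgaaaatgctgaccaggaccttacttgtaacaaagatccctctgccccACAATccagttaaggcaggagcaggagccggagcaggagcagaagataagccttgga
The Tek window holds ACAAT on each strand once and no TTCNNNGAA, and the T window holds no ACAAT and 1 TTCNNNGAA. ACAAT was present on either strand in 20.5% of the 9660 windows of tested genes and TTCNNNGAA in 6.81%. Of the 12 largest differences in each direction 10 had a window, and ACAAT was in 4 of 10 on the higher side (Ifitm6, Nsg2, Rbp7, Tek) and in 3 of 10 on the lower side (Cp, Tshz2, Tspan32). TTCNNNGAA was in 4 of 10 on the higher side (Bcl11a, Ifitm6, Nsg2, T) and 0 of 10 on the lower side. Such matches describe the letters in these windows and not binding.

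Alox15, a lipoxygenase that oxygenates arachidonic and linoleic acid, was at 46.8 and 16.6 CPM in the lines against 1.95, 2.80 and 1.75 CPM in RAG2KO (log2 fold change 3.68, SE 0.27, adjusted p = 1.89e-04). Akr1c18, an aldo-keto reductase that inactivates progesterone, was at 18.9 and 42.4 CPM against 2.49, 1.69 and 1.68 CPM (log2 fold change 3.85, SE 0.53, adjusted p = 0.00510). In both genes each line exceeded every RAG2KO library, and the line with the higher level differed between them. Pde4b, a phosphodiesterase that degrades cyclic AMP, was at 44.6 and 35.8 CPM against 1.35, 2.22 and 2.56 CPM (log2 fold change 4.28, SE 0.51, adjusted p = 0.00241). Its naive libraries, at 8.25 to 9.51 CPM, lay between the lines and RAG2KO. Krt12, a keratin of the corneal epithelium, was at 19.5 and 2.62 CPM against 0.125 to 0.350 CPM (adjusted p = 0.00188). Bcl11a, a zinc finger repressor, was at 8.30 and 2.45 CPM against 0.642 to 0.748 CPM (adjusted p = 0.00915), while naive and C57Bl6 libraries held 1.64 to 3.91 CPM. Ifitm6, of the interferon-induced transmembrane family, was at 37.6 and 9.91 CPM against 0.312 to 0.741 CPM (adjusted p = 0.0234). With the constitutive library left out of the fit, Tek, Krt12, Bcl11a and Ifitm6 were no longer called: their adjusted p was 0.0691, 0.0572, 0.112 and 0.0892, and without RAG2KO replicate 1, 2 or 3 that of Ifitm6 was 0.0620, 0.0759 and 0.0657. The other genes among the 12 largest, Nsg2, Rbp7, Dapl1 and Dsg4, had adjusted p from 0.168 to 0.386 without the constitutive line. They also lost the call without RAG2KO replicate 1 (Nsg2, Dapl1, Dsg4), 2 (Nsg2) or 3 (Nsg2, Rbp7, Dapl1), and Nsg2 and Dapl1 without naive replicate 1 or 2 (adjusted p from 0.0531 to 0.0889).

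**Figure D2:**
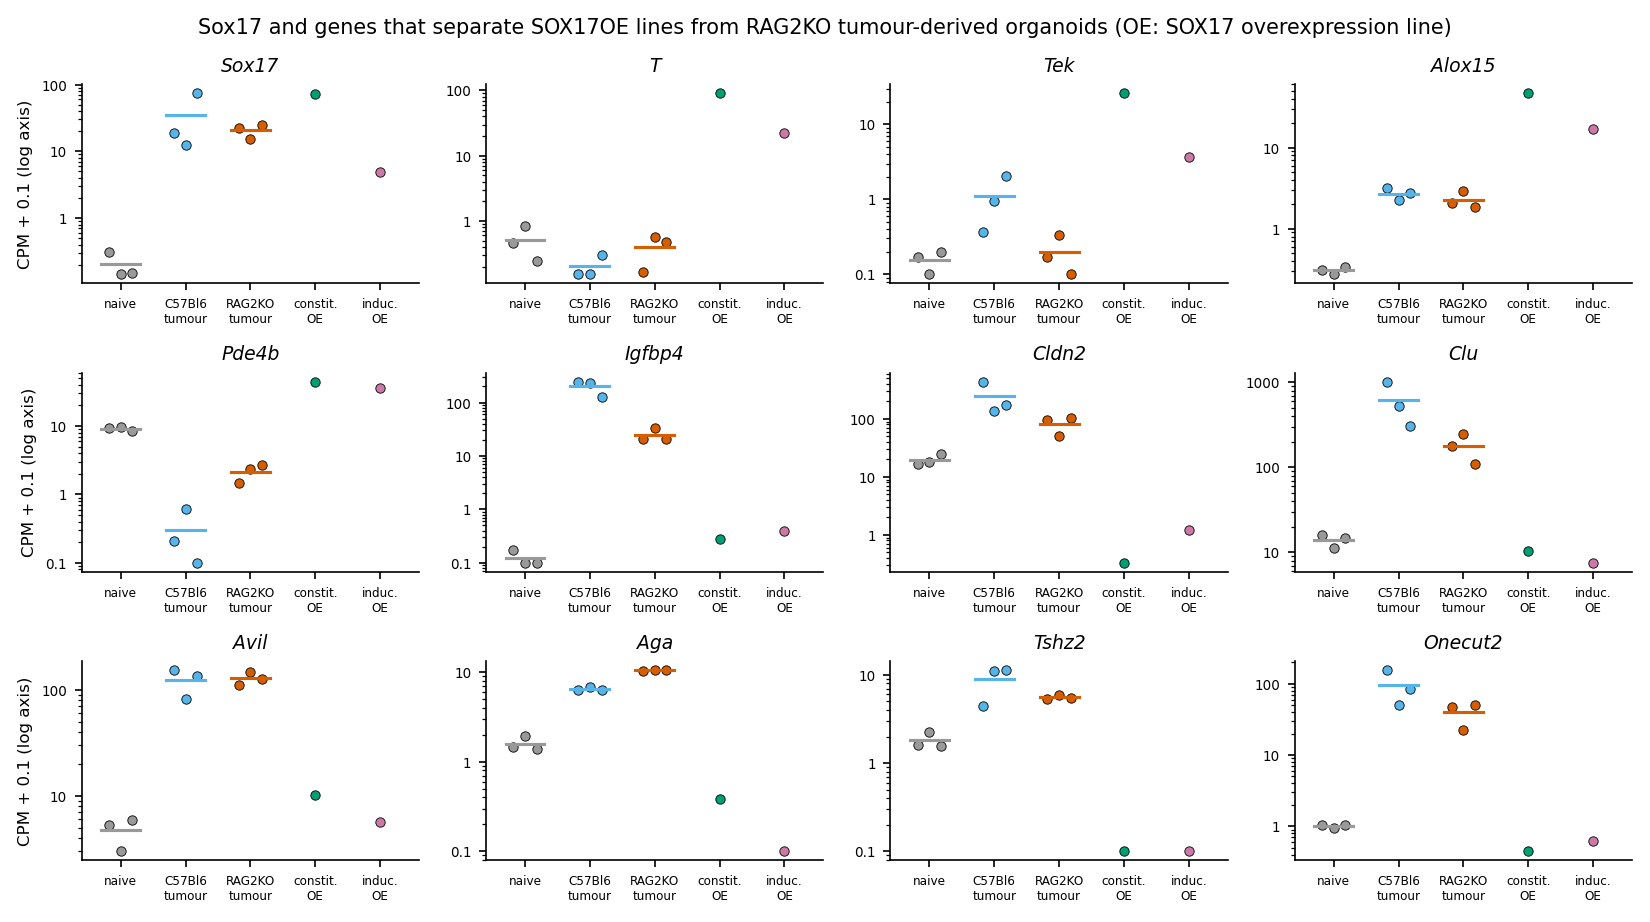
CPM + 0.1 on a log axis for Sox17 and 11 called genes, 1 point per library, with the mean of each group of 3 as a bar. T, Tek, Alox15 and Pde4b are higher in both SOX17OE lines than in each RAG2KO library, and Igfbp4, Cldn2, Clu, Avil, Aga, Tshz2 and Onecut2 are lower; Sox17 of the constitutive line (72.7 CPM) is above and of the inducible line (4.78 CPM) below the RAG2KO points.

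Among genes lower in the lines, several were close to absent. Igfbp4, a secreted binding protein of insulin-like growth factors, was at 0.173 and 0.292 CPM against 20.3, 33.6 and 20.4 CPM in RAG2KO (log2 fold change -6.74, SE 0.57, adjusted p = 4.77e-04). Naive organoids held 0 to 0.0715 CPM and C57Bl6 organoids 126 to 247 CPM, so both lines were near the naive level. Onecut2, a homeobox factor of foregut-derived epithelia, was at 0.346 and 0.525 CPM against 47.3, 22.5 and 50.1 CPM (log2 fold change -6.53, SE 0.71, adjusted p = 0.00188). Palmd, a cytosolic protein related to paralemmin, was at 0.115 and 0.350 CPM against 35.8, 24.8 and 16.1 CPM (adjusted p = 7.31e-04). For Onecut2 and Palmd as well the naive libraries, at 0.833 to 0.953 and 0 to 0.0477 CPM, stood far below RAG2KO.

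Cldn2, Tshz2 and Aga lay below naive organoids too. Cldn2, a claudin that forms cation pores in tight junctions, was at 0.231 and 1.11 CPM against 94.4, 49.9 and 103 CPM in RAG2KO and 16.3 to 24.5 CPM in naive organoids (log2 fold change -7.32, SE 0.79, adjusted p = 0.00187). Tshz2, a zinc finger homeobox gene, had 0 counts in both lines against 5.26, 5.78 and 5.36 CPM in RAG2KO and 1.48 to 2.15 CPM in naive organoids. Against a floor of 3 counts per library Tshz2 was at least 31.4-fold lower (adjusted p = 6.07e-04). Aga, a lysosomal enzyme that cleaves asparagine-linked sugars, had 5 and 0 counts against 10.2, 10.5 and 10.4 CPM in RAG2KO and 1.29 to 1.84 CPM in naive organoids (adjusted p = 4.83e-05). In these 3 genes no library of any other group was as low as either line. The genes that follow are set against RAG2KO only. Tspan32, a tetraspanin, was at 0.231 and 0.408 CPM against 33.0 to 71.8 CPM (adjusted p = 0.00338). Ttll7, an enzyme that adds glutamates to tubulin, had 0 and 2 counts against 332 counts in RAG2KO (ratio 119, 95% counting interval 32.8 to 990, adjusted p = 0.00156). Flot2, a scaffold of membrane microdomains, had 0 and 3 counts (ratio 66.9, interval 22.6 to 326, adjusted p = 0.00377), and Tmem150c 0 and 2 counts (ratio 93.1, interval 25.5 to 773, adjusted p = 0.00444). These intervals cover counting error only. The other 4 of the 12 largest, Galnt6, Scn8a, Cp and Edn3, varied 5-fold or more between RAG2KO libraries (Galnt6 from 1.75 to 15.7 CPM). Without the constitutive line their adjusted p was 0.104, 0.0545, 0.0545 and 0.106, and without the inducible line that of Galnt6, Cp and Edn3 was 0.0954, 0.0988 and 0.0562.

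Interferon gamma signalling differed at its receptor and at 1 target. Ifngr1, the ligand-binding chain, was at 25.7 and 29.7 CPM in the lines against 62.7, 62.6 and 55.4 CPM in RAG2KO (log2 fold change -1.12, SE 0.17, adjusted p = 0.00787). Naive (58.6 to 72.0 CPM) and C57Bl6 libraries (57.8 to 80.3 CPM) lay with RAG2KO, so the lines were below all 9 other libraries. Irf1, a transcription factor induced by interferon gamma, was at 44.7 and 39.0 CPM against 103, 96.8 and 97.0 CPM (log2 fold change -1.24, SE 0.18, adjusted p = 0.00677), and each line was called alone (adjusted p = 0.0471 and 0.0337). Naive libraries held 29.8 to 33.6 CPM of Irf1 and C57Bl6 libraries 44.5 to 70.4 CPM, so RAG2KO was the highest group and the lines stood between naive and RAG2KO. The adjusted p of Ifngr1 was 0.0545 without the constitutive line. Ifngr2, the signalling chain, was at 130 and 76.6 CPM against 98.4 to 125 CPM (log2 fold change -0.13, 95% interval -0.59 to 0.33, adjusted p = 0.792). The constitutive line was above and the inducible line below the RAG2KO range of Ifngr2.

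The start of Irf1 is shown because Irf1 was the 1 called interferon gamma induced gene (RefSeq, GRCm38.p6, chr11:53769764-53770063, plus strand, the first of 2 listed starts). Capitals mark TTCNNNGAA.
Irf1: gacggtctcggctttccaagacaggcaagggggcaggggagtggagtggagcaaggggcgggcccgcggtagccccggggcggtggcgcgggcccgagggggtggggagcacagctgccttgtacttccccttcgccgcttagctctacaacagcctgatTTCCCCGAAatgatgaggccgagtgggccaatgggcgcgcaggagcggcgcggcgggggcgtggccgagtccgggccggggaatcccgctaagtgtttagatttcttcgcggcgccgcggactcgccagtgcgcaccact
The window of Irf1 has 1 TTCNNNGAA and no ACAAT, and that of Ifngr1 has neither.

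Of 23 tested interferon receptor and JAK-STAT genes 1 was called, Ifngr1 (4.35% against 3.56% of all genes, median -0.28). Of 25 interferon gamma induced genes 1 was called, Irf1 (4.0%, median -0.97, or -0.85 with members at 0 counts in a line set to the floor of 3 counts), and 20 had a negative difference. Cxcl10, a T cell attracting chemokine, was at 2.02 and 1.40 CPM against 2.43, 5.43 and 4.12 CPM (log2 fold change -1.25, SE 0.61, adjusted p = 0.324). Cd274, which encodes PD-L1, was at 1.21 and 1.22 CPM against 0.944, 5.96 and 2.31 CPM (log2 fold change -1.33, SE 0.73, adjusted p = 0.379). Cxcl10 was lower in both lines than in each RAG2KO library and Cd274 overlapped, and neither passed the test.

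Of 26 tested genes of MHC class I presentation 2 were called, both lower (7.69%, against 3.56% of all genes). In 12 both lines lay below RAG2KO (median -0.51), against 2195 of all 13720 tested genes. Tapbp, tapasin, which loads peptide on MHC class I, was at 23.1 and 11.95 CPM against 27.8, 44.3 and 28.4 CPM (log2 fold change -1.01, SE 0.23, adjusted p = 0.0390), above the naive 7.76 to 9.06 CPM. Its relative Tapbpl was at 17.4 and 14.2 CPM against 25.0 to 27.5 CPM (adjusted p = 0.0284), a log2 fold change of -0.75 with an SE of 0.16. Both calls were at the margin. Without RAG2KO replicate 2 the adjusted p was 0.0668 for Tapbp and 0.0730 for Tapbpl, and it was 0.491 and 0.194 without the inducible line, 0.0656 and 0.0521 without naive replicate 1 and 0.0672 and 0.0541 without naive replicate 2. Tapbp also lost it without naive replicate 3 (0.0532) or C57Bl6 replicate 3 (0.0576), and Tapbpl without RAG2KO replicate 1 (0.0602) or the constitutive line (0.0593). The heavy chains H2-K1 (352 and 328 CPM against 424 to 532 CPM, log2 fold change -0.46, 95% interval -0.79 to -0.13, adjusted p = 0.131) and H2-D1 (298 and 255 CPM against 359 to 419 CPM, log2 fold change -0.46, interval -0.76 to -0.16, adjusted p = 0.0987) were below RAG2KO in both lines and did not pass. DESeq2 called both (adjusted p = 0.0313 and 0.0128). B2m, the light chain, was at 135 CPM in the constitutive and 43.2 CPM in the inducible line against 80.4, 107 and 72.2 CPM, on opposite sides of RAG2KO (mean log2 fold change -0.18, adjusted p = 0.643). The peptide transporter gene Tap1 was at 5.59 and 2.62 CPM against 1.21 to 4.96 CPM (adjusted p = 0.966).

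**Figure D3:**
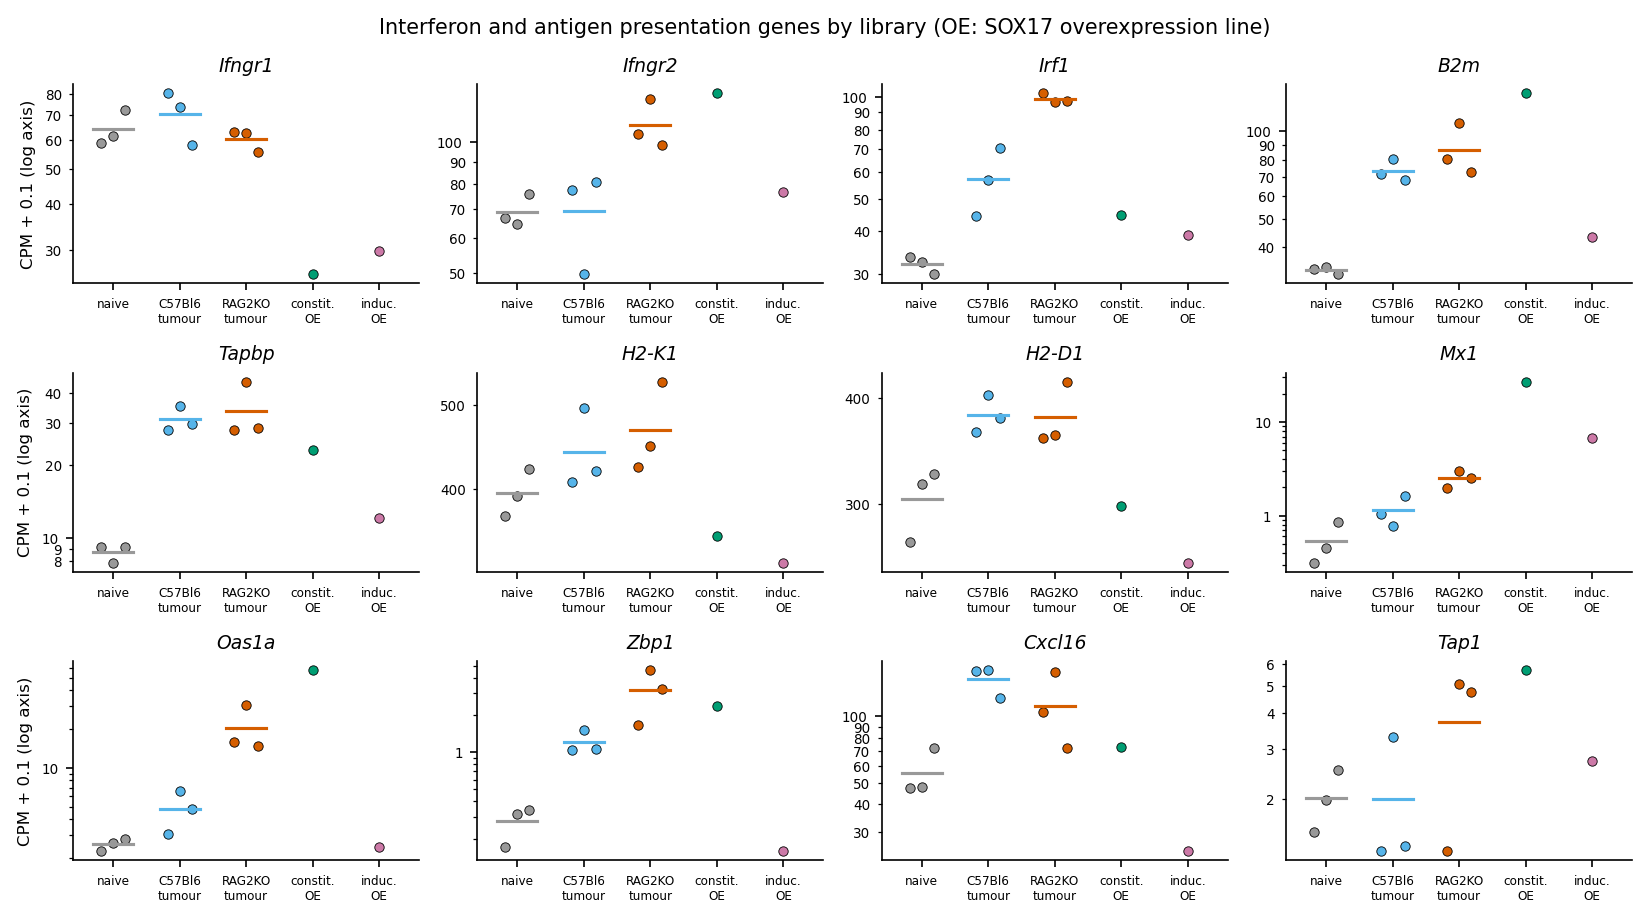
CPM + 0.1 on a log axis for 12 interferon and antigen presentation genes, 1 point per library, with the mean of each group of 3 as a bar. Ifngr1 (25.7 and 29.7 CPM) and Irf1 (44.7 and 39.0 CPM) are low in both SOX17OE lines against RAG2KO, while Ifngr2, B2m and Oas1a are highest in the constitutive line and below RAG2KO in the inducible line.

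The 34 tested type I interferon induced genes had 1 member higher and 1 lower (5.88%). Mx1, an antiviral GTPase, was at 26.9 and 6.59 CPM against 1.89, 2.92 and 2.43 CPM (log2 fold change 2.46, SE 0.45, adjusted p = 0.0180), both lines above every other library, though without the constitutive line its adjusted p was 0.2497. Zbp1, a sensor of Z-form nucleic acid, was at 2.25 and 0.0583 CPM against 1.55 to 4.496 CPM, and its call (adjusted p = 0.0434) rested on the inducible line (adjusted p = 0.871 without it) and was also lost without RAG2KO replicate 2 (0.0978) or 3 (0.0759), C57Bl6 replicate 3 (0.0606) or naive replicate 1, 2 or 3 (0.0552 to 0.0774). The median of the list was 0.84 in the constitutive and -1.52 in the inducible line against RAG2KO. In the test between the lines 39 of all genes passed (0.284%), and of this list 1 did, Oas1a, an antiviral sensor of double-stranded RNA (57.5 CPM in the constitutive and 2.33 CPM in the inducible line against 15.8, 30.4 and 14.7 CPM in RAG2KO, adjusted p = 0.0248, and 0.0589 or 0.0547 without naive replicate 1 or 2).

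Of 25 tested chemokines and cytokines 3 were called, all lower (12%, median -1.40, or -1.25 at the floor). Cxcl3, a neutrophil attracting chemokine, had 2 and 0 counts in the lines against 2.83, 6.19 and 1.19 CPM (ratio 60.03, 95% counting interval 16.4 to 500, adjusted p = 0.00759, and 0.0720 without the inducible line). Tnf was at 9.11 and 4.43 CPM against 17.8, 30.8 and 12.8 CPM (adjusted p = 0.0390), and Cxcl16, the ligand of CXCR6, at 72.7 and 24.5 CPM against 104, 159 and 71.9 CPM (adjusted p = 0.0471). Cxcl16 of the constitutive line fell within the RAG2KO range. Both calls were lost without RAG2KO replicate 1 (0.0584 and 0.0821), RAG2KO replicate 2 (0.0741 and 0.0794), naive replicate 1 (0.0625 and 0.0733), naive replicate 2 (0.0685 and 0.0731) or the inducible line (0.324 and 0.610). Tnf was also lost without naive replicate 3 (0.0553) or the constitutive line (0.0689), and Cxcl16 without C57Bl6 replicate 1, 2 or 3 (0.0516 to 0.0587). None of 18 tested immune inhibitory ligands was called by edgeR in the mean of the lines, with 4 at an unadjusted p under 0.05, 17 negative differences, and 1 lower by the DESeq2 Wald test. In the inducible line 1 of them was lower, Lgals9, galectin-9 (9.79 CPM against 36.9 to 53.3 CPM, adjusted p = 0.0237, and 0.0508 without naive replicate 1 or 2). Of 21 NF-kappaB genes 1 was called, Birc3, an inhibitor of apoptosis (11.99 and 14.6 CPM against 25.9, 45.0 and 26.3 CPM, adjusted p = 0.0221, and 0.106 and 0.0688 without the constitutive or the inducible line).

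Stem cell and Wnt genes were lower at Lgr5 and at secreted Wnt regulators. Lgr5, the R-spondin receptor that marks intestinal stem cells, was at 1.56 and 6.30 CPM against 20.2, 8.18 and 22.3 CPM (log2 fold change -2.43, SE 0.43, adjusted p = 0.0171), below all naive (50.2 to 71.7 CPM) and C57Bl6 libraries (44.9 to 64.1 CPM). Without the constitutive line its adjusted p was 0.198, and with the lines as 1 group 0.0879. Ascl2, a stem cell transcription factor, was at 47.2 and 66.2 CPM within the RAG2KO range of 24.7 to 83.5 CPM (log2 fold change 0.02, 95% interval -0.96 to 0.99, adjusted p = 0.990). Of 17 stem cell genes Lgr5 and Cd44 were called (11.8%, median -0.04), and of 25 Wnt targets and feedback genes 5, all lower (20%, median -0.33). Dkk2, a secreted modulator of Wnt receptors, was at 38.8 and 52.8 CPM against 287, 479 and 296 CPM (log2 fold change -2.97, SE 0.35, adjusted p = 0.00219), above the naive 10.4 to 13.1 CPM and without overlap with RAG2KO. Wnt6, a Wnt ligand, was at 0.749 and 0.583 CPM against 6.48 to 9.23 CPM (adjusted p = 0.0272) and Dkk3 at 0.461 and 0.175 CPM against 1.69 to 10.4 CPM (adjusted p = 0.0223). Limma voom did not call Lgr5, Dkk3 or Wnt6 (adjusted p = 0.0877, 0.0834 and 0.178). Without the constitutive line the adjusted p was 0.0937 for Wnt6, 0.0729 for Dkk3 and 0.101 for Cd44, and without the inducible line 0.137, 0.146 and 0.130. Wnt6 and Cd44 also lost their calls without RAG2KO replicate 1 (0.0533 and 0.0655) or naive replicate 1 (0.0530 and 0.0573), Wnt6 without RAG2KO replicate 3 (0.0514) and Cd44 without RAG2KO replicate 2 (0.0562).

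Markers of fetal and injured epithelium were lower in the lines, 7 of 25 tested and none higher (28.0%, median -0.91). Clu, clusterin, a marker of the revival stem cells of damaged intestine, was at 10.3 and 7.46 CPM against 179, 250 and 108 CPM (log2 fold change -4.35, SE 0.58, adjusted p = 0.00566). Both lines were below the naive libraries too (11.3 to 16.01 CPM), and C57Bl6 libraries were at 310 to 1022 CPM. Spp1, osteopontin, was at 25.7 and 15.3 CPM against 569, 820 and 180 CPM (log2 fold change -4.72, SE 0.77, adjusted p = 0.0126). Sprr1a, a cornified envelope protein, was at 35.4 and 5.07 CPM against 114, 460 and 141 CPM (adjusted p = 0.0199), and Msln, mesothelin, at 84.3 and 97.6 CPM against 237, 427 and 226 CPM (adjusted p = 0.0272). Ly6a (Sca-1) and Anxa1 of the same list did not pass: Ly6a was at 1491 and 1917 CPM against 1648 to 2669 CPM (adjusted p = 0.632) and Anxa1 at 2198 and 2426 CPM against 1534 to 2618 CPM (adjusted p = 0.827). Without the inducible line the adjusted p was 0.0822 for Spp1, 0.222 for Sprr1a and 0.0990 for Msln, and without the constitutive line 0.0545 for Spp1 and 0.110 for Msln, which also lost its call without naive replicate 1 (0.0530). Over the whole list 2 members were called without the constitutive and 1 without the inducible line.

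Genes of the gastric and foregut epithelium had the most negative median of the lists with 5 or more tested members (-3.82 over 18, or -2.61 at the floor, against -0.0070 over all genes). Of these, 13 had both lines below RAG2KO, against 2195 of all 13720 tested genes. In the list 5 were called, all lower (27.8%): Onecut2, Ctse, Vsig1, Aqp5 and Krt7. Ctse, the aspartic protease cathepsin E, was at 1.96 and 0.350 CPM against 31.0, 98.3 and 29.1 CPM (adjusted p = 0.0243). Aqp5, a water channel of pyloric gland cells, was at 1.79 and 0.874 CPM against 17.4, 5.20 and 8.98 CPM (adjusted p = 0.0330), and C57Bl6 libraries held 113 to 220 CPM. Vsig1, an adhesion protein of the stomach, was at 0.173 and 0.408 CPM against 4.49 to 7.47 CPM (adjusted p = 0.0322), with naive organoids at 3.16 to 4.72 CPM. Limma voom did not call Ctse, Vsig1 or Aqp5 (adjusted p = 0.0768, 0.0764 and 0.0986). Only Onecut2 kept its call without either line, and without RAG2KO replicate 2 the list had 3 called members. Without the constitutive line the adjusted p was 0.0771 for Ctse, 0.140 for Vsig1, 0.0872 for Aqp5 and 0.171 for Krt7, and without the inducible line 0.158, 0.113, 0.185 and 0.0762. Without naive replicate 1 it was 0.0587 for Vsig1, 0.0519 for Aqp5 and 0.0563 for Krt7, without naive replicate 2 0.0541, 0.0597 and 0.0620, and without RAG2KO replicate 1 and 2 it was 0.0548 and 0.0658 for Vsig1 and 0.0624 and 0.0794 for Krt7.

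YAP/TAZ target genes, which respond to the Hippo pathway and cell shape, had 5 of 25 members lower and none higher (20%, median -0.63). Jub (Ajuba), a LIM protein that binds LATS kinases, was at 49.5 and 36.3 CPM against 93.1, 92.8 and 77.5 CPM (log2 fold change -1.05, SE 0.14, adjusted p = 0.00382), below the naive 56.8 to 64.5 CPM. Ankrd1 was at 0.749 and 0.117 CPM against 7.55, 33.4 and 7.30 CPM (adjusted p = 0.0243) and Ctgf at 35.0 and 29.3 CPM against 160, 349 and 140 CPM (adjusted p = 0.0481). Without the inducible line none of the 5 was called and without the constitutive line 2 were. Ctgf was also lost without RAG2KO replicate 1 (0.0736) or 2 (0.0986), naive replicate 1 (0.0680) or 2 (0.0762) or C57Bl6 replicate 2 (0.0546). Of 23 TGF-beta and BMP response genes 2 were lower (8.70%), Ctgf and Tgfb3, a TGF-beta ligand (0.115 and 0.700 CPM against 4.45, 11.7 and 3.12 CPM, adjusted p = 0.0234, and 0.141 or 0.0737 without the constitutive or inducible line).

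Matrix and mesenchymal genes had a median of -1.78 over 37 tested members (-1.48 at the floor), with 3 lower: Spp1, Fn1 and Timp3 (8.11%). Fn1, fibronectin, was at 15.4 and 4.90 CPM against 59.6, 258 and 55.3 CPM (adjusted p = 0.0383), and Timp3, an inhibitor of metalloproteases, at 3.80 and 2.74 CPM against 31.0, 137 and 28.8 CPM (adjusted p = 0.0330). RAG2KO replicate 2 was the highest library for both. It also had the most fibroblast and smooth muscle marker RNA, 12.4 CPM over 15 markers, 4 of them at 0, against 3.10 and 2.62 CPM in the other RAG2KO libraries and 8.01 and 1.28 CPM in the lines, and the part of this signal in the result was not tested. A member of that list, Acta2, the smooth muscle actin, was itself lower in the lines (0.231 and 0 CPM against 1.08, 1.28 and 0.437 CPM, adjusted p = 0.0419), the 1 called of 6 tested (16.7%). Its call was lost without either line (0.0724 and 0.422), RAG2KO replicate 1 or 2 (0.0804 and 0.0889), naive replicate 1, 2 or 3 (0.0524 to 0.0731) or C57Bl6 replicate 3 (0.0602). Without RAG2KO replicate 2 all 3 stayed called. Without the constitutive line the adjusted p of Fn1 and Timp3 was 0.0896 and 0.106, without the inducible line 0.245 and 0.158, and without naive replicate 1, 2 or 3 it was 0.0573 to 0.0707. In the insulin-like growth factor axis 3 of 17 genes were lower (17.6%): Igfbp4, Igfbp7 and the receptor substrate Irs1. Igfbp7 had 0 counts in both lines against 2.56, 5.37 and 0.437 CPM, at least 16.1-fold lower (adjusted p = 0.0250, and 0.102 or 0.120 without the constitutive or inducible line). Irs1 was at 8.65 and 6.41 CPM against 16.6, 18.7 and 15.5 CPM (adjusted p = 0.0250), and lost its call without RAG2KO replicate 2 (0.0658), the constitutive (0.0578) or the inducible line (0.173).

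The HOX genes, which set position along the body axis, split by cluster. All 11 tested Hoxa genes were lower in both lines than in every RAG2KO library, and 7 were called (median -2.33). Over all 13720 tested genes, both lines lay below every RAG2KO library in 2195. Of 9 tested Hoxb genes none was lower and 2 were higher (median 0.30). Over both clusters 9 of 20 were called (45.0%). Hoxa5 was at 1.56 and 1.63 CPM against 19.6, 12.2 and 8.67 CPM (log2 fold change -3.07, SE 0.40, adjusted p = 0.00382), below the naive 3.55 to 5.24 CPM. Hoxa11 was at 21.1 and 11.95 CPM against 63.2, 62.0 and 40.5 CPM (log2 fold change -1.80, SE 0.31, adjusted p = 0.0141). Hoxb9 was at 106 and 104 CPM against 51.8, 55.4 and 64.8 CPM (log2 fold change 0.87, SE 0.14, adjusted p = 0.0100), above all 9 other libraries. Hoxb13, the most posterior Hoxb gene, was at 318 and 310 CPM against 135, 121 and 199 CPM (log2 fold change 1.05, SE 0.22, adjusted p = 0.0305). Hoxa2, Hoxa3, Hoxa4, 2700086A05Rik, Hoxa5, Hoxa6, Mira and Hoxa7 formed the longest run of neighbouring tested genes called in 1 direction, 8 genes on chromosome 6, in the gene order of GRCm38. The next longest runs had 3 genes. The run depended on single libraries. Without RAG2KO replicate 1 Hoxa2, Hoxa4 and Mira were not called (0.0910, 0.0785 and 0.0838), which left at most 3 neighbours. Without RAG2KO replicate 2 or 3 Hoxa2, Hoxa4, Mira and 2700086A05Rik were not called (0.0501 to 0.0823), without naive replicate 1 Hoxa2, Mira and 2700086A05Rik (0.0504 to 0.0715), without naive replicate 2 or 3 Hoxa2, Hoxa4 and Mira (0.0557 to 0.0895), and limma voom called none of those 4 (0.0504 to 0.0664). Hoxa2 was also lost without C57Bl6 replicate 1 (0.0520) and Hoxa4 without C57Bl6 replicate 3 (0.0543). 2700086A05Rik and Mira overlap or neighbour Hoxa genes, and whether the counting used strand is not given in the sources used here, so their reads may not be separate from those of the Hoxa genes. Without the constitutive or the inducible line 2 Hoxa genes were called. Hoxb13 lost its call without either line (0.0877 and 0.0897), RAG2KO replicate 1 or 2 (both 0.0766) or naive replicate 1 (0.0570).

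**Figure D4:**
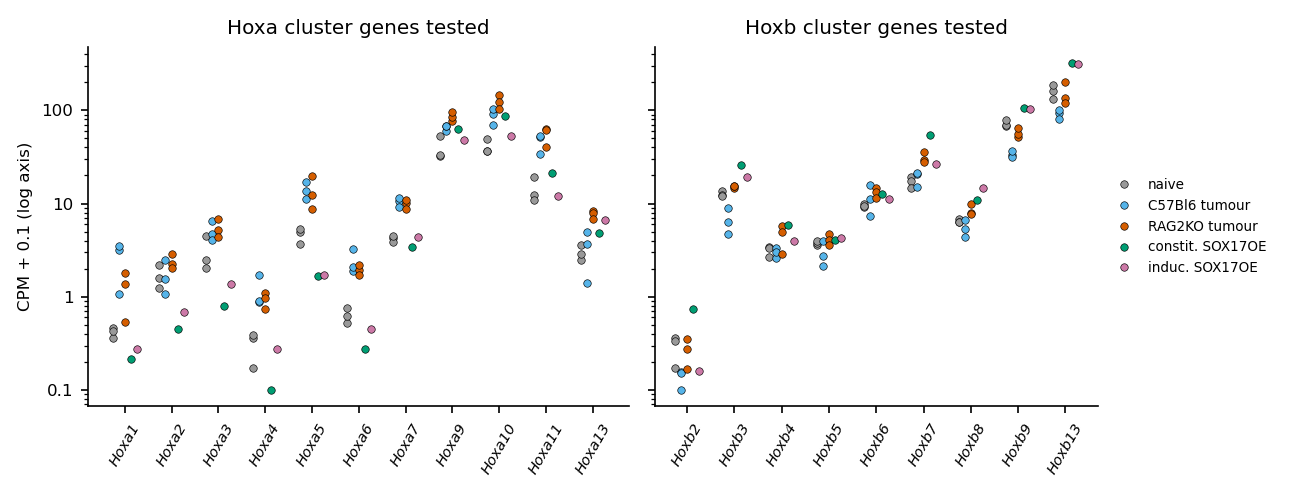
CPM + 0.1 on a log axis of each tested Hoxa (left) and Hoxb (right) gene, 1 point per library. Both SOX17OE lines are below all 3 RAG2KO libraries in each of the 11 Hoxa genes and above them in 4 of the 9 Hoxb genes. Of all 13720 tested genes, 2195 were below and 1868 above in this way.

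Intestinal identity factors were mixed. Cdx2, the main intestinal homeobox factor, was at 34.3 and 103 CPM against 38.3 to 54.7 CPM, 1 line on each side (log2 fold change 0.29, adjusted p = 0.539). Cdx1 was at 0.346 and 4.55 CPM against 3.91, 4.496 and 14.2 CPM (log2 fold change -2.57, SE 0.65, adjusted p = 0.0633), and passed with DESeq2 (0.00225) and without RAG2KO replicate 1 (0.0442). Among absorptive colonocyte and brush border genes 1 of 20 was higher and 4 lower (25.0%, median -0.28). Scnn1a, the alpha subunit of the epithelial sodium channel, was at 1.61 and 3.96 CPM against 13.9, 14.5 and 21.3 CPM (log2 fold change -2.71, SE 0.33, adjusted p = 0.00262), with naive organoids at 1.001 to 1.32 CPM. Muc13, a transmembrane mucin, passed in the mean (adjusted p = 0.0117), but the lines stood on opposite sides of RAG2KO, at 1.04 CPM in the constitutive and 348 CPM in the inducible line against 113, 111 and 227 CPM. The brush border cadherin Cdhr5 (adjusted p = 0.0155) was at 0.173 CPM in the constitutive line, below RAG2KO, and at 9.56 CPM in the inducible line, within the RAG2KO range of 5.84 to 13.5 CPM. Krt20, a keratin of surface colonocytes, was at 91.1 and 10.7 CPM against 3.10, 8.23 and 4.80 CPM (log2 fold change 2.53 with an SE of 0.52, adjusted p = 0.0303). The adjusted p of Krt20 was 0.477 without the constitutive line, 0.0792 and 0.0759 without RAG2KO replicate 1 or 3, and 0.0513 without naive replicate 1. Muc13 and Cdhr5 turned to 1.21 and 0.17 on the log2 scale without the constitutive line (adjusted p = 0.207 and 0.881).

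Among 21 tested keratins and squamous genes 1 was higher, Krt20, and 5 were lower (28.6%). Krt18, a main keratin of simple epithelia, was at 638 and 836 CPM against 1371, 1425 and 1600 CPM (log2 fold change -1.01, SE 0.15, adjusted p = 0.00614, and 0.0646 without the constitutive line), below all naive and C57Bl6 libraries (1128 to 1978 CPM). Its partner Krt8 did not pass, with 1686 and 2385 CPM against 1959 to 2108 CPM (adjusted p = 0.995). Krt17, a keratin of basal and wounded epithelia, had 2 and 0 counts against 1.48, 10.2 and 2.06 CPM (ratio 82.7, 95% counting interval 22.6 to 687, adjusted p = 0.0243, and 0.0796 or 0.159 without the constitutive or inducible line).

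Tuft cell genes, of the chemosensory cells of the gut, had 2 of 8 members lower (25.0%). Avil, advillin, which bundles actin in tuft cells, was at 10.1 and 5.60 CPM against 111, 149 and 126 CPM (log2 fold change -4.10, SE 0.37, adjusted p = 5.93e-04), close to the naive 2.89 to 5.86 CPM. Ptgs1, the prostaglandin synthase COX-1, was at 4.32 and 2.16 CPM against 46.4, 52.2 and 24.1 CPM (log2 fold change -3.74, SE 0.44, adjusted p = 0.00238), also near naive (1.93 to 2.19 CPM). The tuft cell factor Pou2f3 and the channel gene Trpm5 were at 0 to 0.292 CPM in these 5 libraries. Of 16 eicosanoid enzymes Alox15 was higher and Ptgs1, Ptgs2 and Alox12 lower (25.0%, median -0.09, but 0.45 at the floor). Ptgs2 (COX-2) had 0 counts in the constitutive line and 3.38 CPM in the inducible line against 3.74 to 11.1 CPM, and without the constitutive line its adjusted p was 0.535. Alox12, the platelet-type lipoxygenase, was at 5.19 and 1.34 CPM against 15.2, 15.4 and 23.9 CPM (adjusted p = 0.0313). Its call was lost without RAG2KO replicate 1 or 3 (0.0538 and 0.0582), naive replicate 1 or 2 (0.0543 and 0.0541), the constitutive (0.0613) or the inducible line (0.306).

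In metal handling Mt4, a metallothionein of squamous epithelia, was at 3722 and 2768 CPM against 356, 456 and 826 CPM (log2 fold change 2.55, SE 0.49, adjusted p = 0.0251), above the naive 84.8 to 268 CPM. Its call was lost without RAG2KO replicate 1 or 2 (0.0762 and 0.0803) and without the constitutive line (0.0786). Slc39a4, a zinc importer, was at 7.84 and 7.87 CPM against 41.1, 77.7 and 68.2 CPM (log2 fold change -2.99, SE 0.43, adjusted p = 0.00664), below the naive 25.3 to 48.6 CPM, and both lines had the same level. These were the 2 called of 24 metallothionein and detoxification genes (8.33%).

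**Figure D5:**
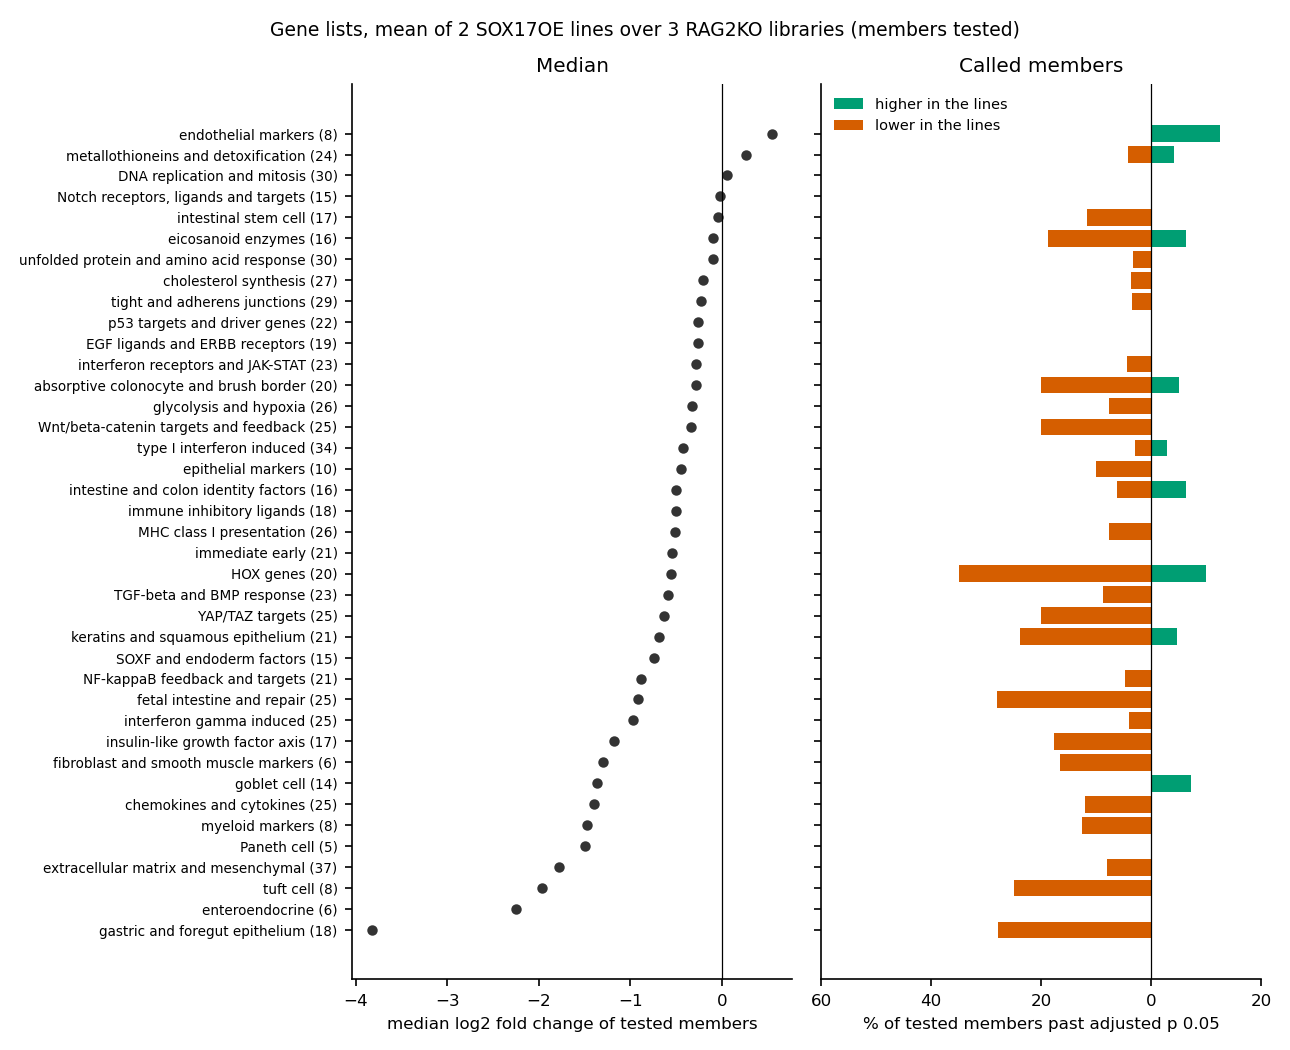
Left, median log2 fold change of the tested members of each gene list with at least 5, mean of the 2 SOX17OE lines over RAG2KO; right, percent of tested members called higher (green) and lower (orange). The gastric and foregut list has the lowest median (-3.82) and the HOX list the largest called share (45.0%), against 3.56% of all genes.

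Several groups had no called member by edgeR in the mean of the lines. Of 15 SOXF and endoderm factors, which had 12 negative differences (median -0.74, or -0.66 at the floor), 8 had an unadjusted p under 0.05, 4 were lower by the DESeq2 Wald test and none by limma voom, and 1 was lower without naive replicate 3, C57Bl6 replicate 2 or RAG2KO replicate 3. None of 15 Notch genes or of 30 genes of DNA replication and mitosis (median 0.06) had an unadjusted p under 0.05 or was called by DESeq2 or limma voom. Of 19 EGF ligands and ERBB receptors 3 had an unadjusted p under 0.05 and DESeq2 called 1, and of 22 p53 targets and driver genes 4 and 3. Of 21 immediate early genes 3 had an unadjusted p under 0.05, DESeq2 called 2 and limma voom 1, and 2 and 1 were lower without naive replicate 3 or RAG2KO replicate 1. In the DNA replication and mitosis group no member had both lines outside the RAG2KO range on the same side, against 29.6% of all tested genes. At this precision, an unadjusted p under 0.05 was reached by 2468 of all genes. The engineered genes Apc (71.2 and 65.6 CPM against 54.2 to 59.5 CPM) and Trp53 (2.65 and 2.97 CPM against 2.86 to 4.38 CPM) had adjusted p of 0.557 and 0.690. SOX7, the other SOXF factor among the tested genes, is encoded by Sox7, which had 0 counts in both lines against 0.674, 3.27 and 0.374 CPM (adjusted p = 0.0549).

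Each line was also set against RAG2KO alone. A call in only 1 line does not show that the lines differ, which the test between the lines addresses. Genes given here can also be called in the mean of the lines. Pmvk was (log2 fold change -0.65, adjusted p = 0.0217 by edgeR, and 0.0551 without RAG2KO replicate 2). In the inducible line alone 5 of 30 unfolded protein and amino acid response genes were higher, against 0.627% of all genes: Asns, Psat1, Shmt2, Mthfd2 and Atf5. Mthfd2, a mitochondrial folate enzyme, was at 213 CPM in the inducible and 78.8 CPM in the constitutive line against 85.5, 76.8 and 99.2 CPM in RAG2KO and 214 to 252 CPM in naive organoids. Asns, asparagine synthetase, was at 432 and 136 CPM against 169, 169 and 224 CPM, with 411 to 460 CPM in naive organoids. In both genes the inducible line was at the naive level and the constitutive line at or below the RAG2KO level. In the test between the lines Mthfd2 (adjusted p = 0.0367) and Atf5 (0.0294) passed and Asns did not (0.0601). Both calls were lost without naive replicate 1 (0.0803 and 0.0762) or 2 (0.0891 and 0.0667), and that of Mthfd2 without naive replicate 3 (0.0614), C57Bl6 replicate 3 (0.0586) or RAG2KO replicate 1 (0.0519). In the inducible line alone 4 of 27 cholesterol synthesis genes were lower, Fdft1, Pmvk, Cyp51 and Sc5d, by 0.75 to 0.99 on the log2 scale, against 1.03% of all genes, and none of them passed between the lines. In the constitutive line alone Shh, the hedgehog ligand, was at 6.97 CPM against 0.0674 to 0.312 CPM in RAG2KO and 0.0583 CPM in the inducible line (adjusted p = 0.0304 against RAG2KO, 0.147 between the lines), and without RAG2KO replicate 1, 2 or 3 or naive replicate 1 or 3 its adjusted p was 0.0686, 0.0502, 0.0595, 0.0656 and 0.0558. Krt15, a basal keratin, was at 334 CPM in the constitutive line and 84.9 CPM in the inducible line against 93.3, 84.8 and 84.3 CPM (adjusted p = 0.00928 for the constitutive line, 0.0787 between the lines). Trim44, a ubiquitin-related regulator, had 0 counts in the constitutive and 22.9 CPM in the inducible line against 2.43, 2.22 and 2.06 CPM in RAG2KO and 36.1 to 48.7 CPM in C57Bl6 libraries. The lines lay on opposite sides of RAG2KO and differed in the test between them (adjusted p = 2.05e-04). Without naive replicate 1 or 2 the inducible line had 66 and 68 called genes against RAG2KO and the constitutive line 127 and 123. Without C57Bl6 replicate 1 the constitutive line had 324, and without RAG2KO replicate 1 or 2 or C57Bl6 replicate 3 the inducible line had 123, 121 and 136.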

How the data were processed

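RNA was extracted with Ambion PureLink kits and made into NEBNext Ultra II Directional libraries with poly(A) selection, per the labels' protocols. The authors deposited expected counts per gene, made with Bowtie and RSEM on mm9, per the submitters' processing notes; no version, annotation or strand setting of the counting is given in the sources used here. Expected counts were rounded to whole numbers. Genes were kept by filterByExpr (minimum count 10), scaled by TMM and fitted with edgeR 4.0.16 in R 4.3.3 by robust quasi-likelihood over all 11 libraries in 5 groups, so that the spread comes from the naive, C57Bl6 and RAG2KO triplicates, with Benjamini-Hochberg adjusted p under 0.05 over all 13720 tested genes as the threshold. Contrasts were the mean of the 2 lines against RAG2KO, each line against RAG2KO, and constitutive against inducible; levels are TMM-scaled CPM. The calculation was tested on simulated data. Alternatives used DESeq2 1.42.0 (size factors, Wald test), limma 3.58.1 (voom with sample weights), upper quartile scaling, no filter on low counts, at least 1 CPM in 2 libraries, both lines as 1 group, and leaving out each library. A gene with 0 counts in both lines is given as a bound against 3 counts per library.

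Named genes were a fixed set of marker, pathway and driver genes, the 12 largest called differences in each direction with a mean of at least 5 CPM on the higher side and no overlap, the next 4 of each direction in each line alone, and up to 6 called members per gene list, leaving out predicted genes. Hoxa2, Hoxa4, 2700086A05Rik and Mira, of the run of Hoxa neighbours, were followed beside the genes named by rule. The comparison, the named genes and the 41 gene lists were chosen with earlier results of these data known. Cdh5, Krt8, Sox7, Pou2f3, Trpm5, Psat1, Shmt2, Fdft1 and other uncalled or single-line members named from lists were chosen after their values were seen. Of 897 listed symbols 877 matched the files. Dates stand in place of 25 gene names in the deposited file. Promoter windows and gene order come from GRCm38 tables, in which 13591 of the tested genes (99.1%) matched by name; no coordinates of the files' build were used. Some items are not reported here.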

Additional observations from a re-analysis of the deposited data

Results flagged for a closer look

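The SOX17OE lines differed from each other, by edgeR's test of the difference between them (constitutive minus inducible), in 9 genes named by rule. On the log2 scale the difference was -11.68 for Trim44, -8.38 for Muc13, -5.73 for Cdhr5, -3.65 for Cth, -3.52 for Krt23, -2.12 for Sorbs2, 1.65 for B2m, 3.12 for Lgals9 and 4.62 for Oas1a (adjusted p from 2.05e-04 for Trim44 to 0.0367 for B2m, Cth, Krt23 and Sorbs2). That of Trim44 has the constitutive line at 0 counts and depends on the prior count. Each line is 1 library, so no replicate of a line stands behind these values. Cth, an enzyme of cysteine synthesis, was at 18.3 and 229 CPM against 14.2 to 37.5 CPM in RAG2KO and 110 to 129 CPM in naive organoids. Lgals9, galectin-9, was at 85.1 and 9.79 CPM against 36.9 to 53.3 CPM. Krt23, a keratin, was at 25.9 and 297 CPM against 350 to 540 CPM, and Sorbs2, a cytoskeletal adaptor, at 11.2 and 48.7 CPM against 37.4 to 43.9 CPM. The calls of B2m, Cth, Krt23 and Sorbs2 were lost without naive replicate 1 (adjusted p from 0.0849 to 0.0964) or 2 (0.0667 to 0.0942), C57Bl6 replicate 3 (0.0586 to 0.0589) or RAG2KO replicate 1 (0.0519 to 0.0643), those of B2m, Cth and Krt23 without naive replicate 3 (0.0614 to 0.0785), and that of Sorbs2 without RAG2KO replicate 3 (0.0537). Cdhr5 and Oas1a lost theirs without naive replicate 1 (both 0.0589), and Oas1a without naive replicate 2 (0.0547). Groups of 3 or 1 libraries were too small to look for single libraries that stand apart.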

How the results depend on the processing

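Called genes for the mean of the lines (488) numbered 477 to 500 under other scalings and filters, 431 with limma voom (356 shared), 1131 with the DESeq2 Wald test (485 shared), 301 with the lines as 1 group over 11 libraries (299 shared) and 38 over the 5 libraries, and 214 to 604 without 1 library. The constitutive line (213) had 643 with DESeq2 and 123 to 324 without 1 library, the inducible line (228) 929 and 66 to 300, and the difference between lines (39) 327 with DESeq2, 90 with limma voom and 17 to 80. Of the 90 called genes followed, DESeq2 called 88 and limma voom 62, 54 passed without each of the 9 replicated libraries, 32 without the constitutive and 44 without the inducible line. Muc13 turned to 0.21 on the log2 scale with the lines as 1 group, over 11 or 5 libraries, and was 1.21 without the constitutive and -7.17 without the inducible line. Cdhr5 was 0.17 and -5.56. The cause was not tested. Of the named genes, limma voom did not call Lgr5, Dkk3, Wnt6, Ctse, Vsig1, Aqp5, Ankrd1, Tgfb3, Fn1, Timp3, Igfbp7 or Krt17. Nor did it call Galnt6, Scn8a, Cp, Edn3, Zbp1, Tnf, Cxcl16, Cdhr5, Isx, Car9, Ptgs2, Acta2, Hoxa2, Hoxa4, 2700086A05Rik or Mira. No paired analysis was possible because the 2 lines carry no replicate number in the labels, so the groups compared share fewer than 2 numbers. For 8247 of 13720 genes the depth and spread bounded the difference within 1 log2 unit, and a gene at 0 counts is bounded only by 3 counts per library.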

Other observations

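Apart from the Hoxa genes, neighbouring tested genes called in 1 direction formed 3 runs of 3 and 16 of 2. The runs of 3, all lower in the lines, were Cd200r2, Cd200r3 and Ccdc80 on chromosome 16, Lgr5, Tspan8 and Ptprr on chromosome 10, and Prkacb, Ttll7 and Lphn2 on chromosome 3. Krt12 and Krt20 on chromosome 11 were a pair higher in the lines. The median difference of a line from RAG2KO per chromosome, over genes of at least 5 CPM, ran from -0.04 and -0.05 on chromosome 6 to 0.16 and 0.15 on chromosome 13 in the constitutive and inducible line. RAG2KO replicate 2 against naive organoids was lowest on chromosome 13 (-0.25) and highest on chromosome 6 (0.18).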
